A study of Arabidopsis thaliana with 6 samples.

Results

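The response to flg22 was described in Arabidopsis thaliana seedlings of the genotype parg1-1 from 1 small RNA library of seedlings given 100 nM flg22 and 1 library of untreated seedlings. Members were all mature miRNAs and star strands with 50 or more counts in the higher of these 2 libraries, with intervals of identical counts in all 6 libraries of the study taken once. This gave 65 members, 49 mature and 16 star, of 266 distinct intervals, and they stand at 99 of 671 deposited intervals. They held 98.9% of the counts with flg22 and 99.0% untreated. The rule used the number of counts and not the ratio between the libraries. A member near the minimum could still enter through its higher library alone.

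All groups were 10 day old seedlings of the ecotype Col-0, grown on agar plates and moved into water the day before treatment. The groups used were parg1-1 with 100 nM flg22 and parg1-1 untreated, with parp1parp2 and WT, each with 100 nM flg22 and untreated, set beside them in places. Each group is 1 library, so no difference has a replicate check, and nothing in the labels says whether a library pooled several seedlings. The labels do not state how long seedlings stayed in flg22. The PARG1 transcript is not part of miRNA counts, so the genotype label was not checked.

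A plant miRNA is cut from a hairpin precursor as a short duplex. The mature strand enters an ARGONAUTE protein and directs cleavage or translational repression of matching transcripts, and the partner, the star strand, is mostly lost, although some star strands are themselves loaded. Bases near the 5′ end, called the seed, matter most for pairing with a target. The peptide flg22 comes from bacterial flagellin and is sensed by the receptor kinase FLS2, which starts pattern-triggered immunity. PARG enzymes remove poly(ADP-ribose) from proteins, the polymer that PARP enzymes add. The study's title names DAWDLE, a forkhead-associated domain protein that acts in miRNA processing.

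The sequences below are shown because the results turn on them. They are written 5′ to 3′ as RNA, read from the TAIR10.1 reference at the deposited intervals, with the seed (bases 2 to 8) in capitals. The first set holds the members that were at least 1.5-fold lower or higher with flg22.
miR167d: uGAAGCUGccagcaugaucugg
miR159C: uUUGGAUUgaagggagcuccu
miR157a: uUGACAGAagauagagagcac
miR163: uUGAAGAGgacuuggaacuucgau
miR169d-star: gCAAGUUGaccuuggcucugu
miR160a: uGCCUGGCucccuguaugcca
miR161.2: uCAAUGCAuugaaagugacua
miR164a: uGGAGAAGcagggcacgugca
miR399b: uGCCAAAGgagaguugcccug
miR395b: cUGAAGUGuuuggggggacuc
miR393a-star: aUCAUGCUaucucuuuggauu
miR158a-star: cUUUGUCUacaauuuuggaaa

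The second set holds relatives of these and abundant pairs that differ by 1 base, which allow their counts to be compared, and miR162a, shown because it targets the transcript of a miRNA-processing enzyme.
miR167a: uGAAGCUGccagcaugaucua
miR156a: uGACAGAAgagagugagcac
miR161.1: uGAAAGUGacuacaucggggu
miR159a: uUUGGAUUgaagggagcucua
miR159b: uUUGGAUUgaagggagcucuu
miR396a: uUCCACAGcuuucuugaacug
miR396b: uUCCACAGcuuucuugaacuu
miR165a: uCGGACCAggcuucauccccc
miR166a: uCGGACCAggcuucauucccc
miR162a: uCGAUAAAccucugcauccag
miR158a: uCCCAAAUguagacaaagca

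Most miRNAs of parg1-1 seedlings differed little between the libraries. Of the 65 members, 23 were higher with flg22 and 42 lower, and the median log2 ratio was -0.10, with quartiles of -0.30 and 0.11. Ratios are of counts scaled by TMM, a scaling that trims extreme ratios, and levels are given as scaled CPM, the count per library brought to the same total, and each has an exact 95% interval that covers counting error only. That interval excluded equality for 14 members on the higher side (21.5%) and 21 on the lower side (32.3%), or 53.8% of members in all. A ratio of at least 2 was reached by 2 members (3.08%), 1 higher and 1 lower. A ratio of at least 1.5 was reached by 12 (18.5%), 4 higher (6.15%) and 8 lower (12.3%). Of these 12, miR393a-star, miR159C and miR169d-star met the minimum number of counts only through the library where each was higher. By the same rule 16.4% of 61 intervals were 1.5-fold apart in parp1parp2 and 8.33% of 72 in WT. The plot of the parg1-1 libraries against each other shows where the 12 stand.

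**Figure D1:**
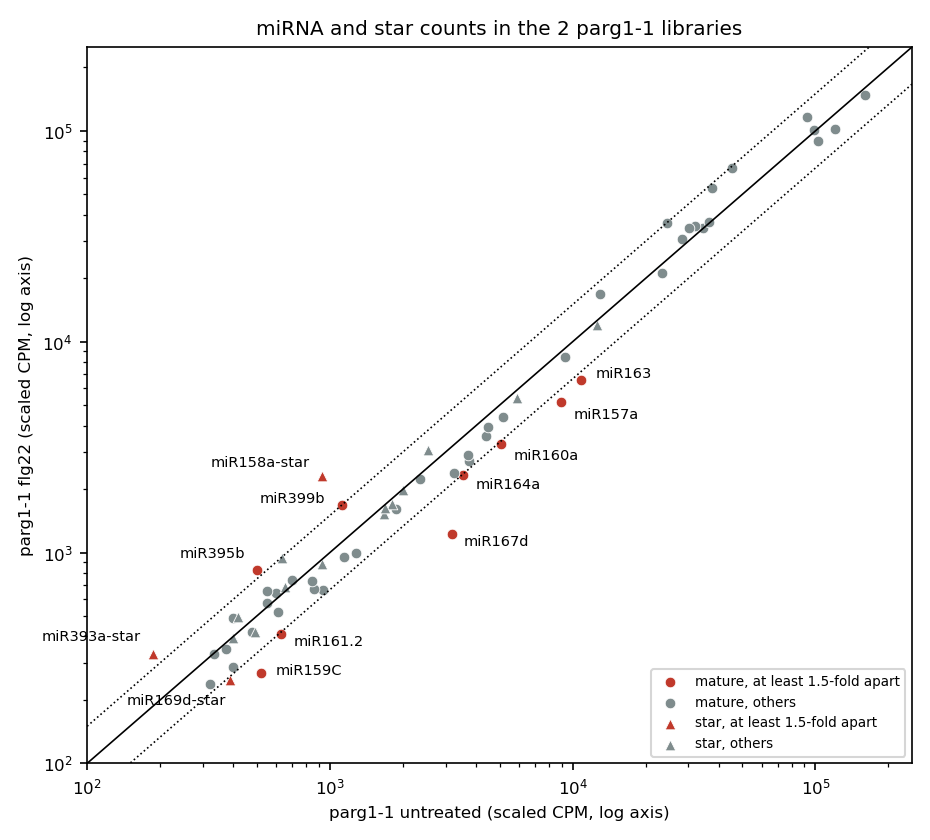
Scaled CPM of the 65 members in the parg1-1 library with flg22 (vertical, log axis) and in the untreated parg1-1 library (horizontal, log axis), 1 library a side. The solid line marks equal levels and the dotted lines 1.5-fold. The 12 named members lie beyond the dotted lines, 8 of them below, and the most abundant miRNAs stay between them.

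The libraries were of like depth. Total counts over distinct intervals were 165088 with flg22 and 166308 untreated in parg1-1. The other 4 libraries had 119791 to 187713. A count of 0 allows up to 3 counts, or 18.8 scaled CPM with flg22 and 18.1 untreated in parg1-1. Chi-square per degree of freedom over the 65 members was 53.6 between the parg1-1 libraries, 34.7 between those of parp1parp2 and 38.4 between those of WT. Sampling noise alone gives about 1. The edgeR model of all 6 libraries gave a biological coefficient of variation of 24.7%. The model has 1 residual degree of freedom, the difference between the flg22 responses of WT and parp1parp2. This value is therefore no measure of spread between replicates, and differences between those genotypes count in it.

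Among miRNAs that act on auxin signalling, miR167d stood lowest of all members. It had 197 counts with flg22 and 525 untreated, or 1231 and 3174 scaled CPM, a log2 ratio of -1.37 (-1.61 to -1.13) and a ratio of 0.388. miR167 guides cleavage of the transcripts of the auxin response factors ARF6 and ARF8. miR167d lies at chr1:11137556-11137577 on the plus strand of TAIR10, at AT1G31173, with no protein-coding gene over it. miR167a, which is 21 bases long against 22 for miR167d and has the same seed, had 3388 counts with flg22 and 3868 untreated, a log2 ratio of -0.14 (-0.21 to -0.08). miR167C, with a different seed, had 84 and 101 counts and -0.22 (-0.65 to 0.21). The ratio of miR167d lay below the intervals of both relatives. The sequences of miR167d and the far more abundant miR167a are the same up to the last base of miR167a. How reads were assigned between them is not given, so the counts of miR167d are uncertain.

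miR160a, which targets ARF10, ARF16 and ARF17, had 526 counts with flg22 and 839 untreated, a log2 ratio of -0.63 (-0.79 to -0.47). The sequence stands at 3 loci. The miR393 family targets the auxin receptors TIR1 and AFBs, and miR393 is known to accumulate after flg22 in wild-type plants. Its 2 star strands were the abundant products here. miR393a-star had 53 counts with flg22 and 31 untreated, a log2 ratio of 0.82 (0.16 to 1.51), and it met the minimum of 50 counts only through the library where it was higher. miR393b-star, which is known to be loaded into AGO2 and to target the SNARE gene MEMB12, had 866 and 972 counts, with -0.12 and an interval that included equality (-0.25 to 0.01). In the WT libraries of this study the log2 ratio was 0.47 (-0.18 to 1.155) for miR393a-star and 0.33 (0.19 to 0.47) for miR393b-star. In parg1-1 the mature miR393a had 10 counts with flg22 and 21 untreated, with an interval of -2.27 to 0.13, and is no member. In all, 6 of 7 auxin members were lower with flg22, against 42 of all 65, with a median of -0.14 against -0.10 for all 65. Of the 7, 2 were 1.5-fold lower and 1 higher, against 8 lower and 4 higher of all 65.

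miR157a and miR156a, which target SPL transcription factors of the juvenile-to-adult transition, did not move together. miR157a had 829 counts with flg22 and 1481 untreated, a log2 ratio of -0.79 (-0.91 to -0.67). miR156a had 5943 and 6058 counts, or 0.02 (-0.03 to 0.07). Of the pair, miR157a was apart. miR157d, under the minimum with 14 counts with flg22 and 35 untreated, had -1.27 (-2.28 to -0.34). miR172a, which targets AP2-like repressors of flowering, had 53 and 55 counts and -0.01 (-0.58 to 0.57), so a change of less than about 1.5-fold was not detectable at this depth.

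miR163, a 24-base miRNA that targets SABATH methyltransferase transcripts, had 1054 counts with flg22 and 1789 untreated, a log2 ratio of -0.72 (-0.83 to -0.60). It lies at chr1:24884359-24884382 on the plus strand, at AT1G66725, and was the only 24-base member. miR164a, which targets NAC transcription factors such as CUC1 and CUC2, had 374 counts with flg22 and 585 untreated, or -0.60 (-0.79 to -0.41). miR164C, which differs by G21A (miR164C first), had 108 and 142, or -0.35 (-0.72 to 0.02). Both were lower with flg22, and only the interval of miR164a excluded equality.

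In the miR396 pair, which targets GRF transcription factors of organ growth, the difference was the other way. miR396b had 5835 counts with flg22 and 4066 untreated, a log2 ratio of 0.57 (0.51 to 0.63), and miR396a had 5513 and 5711, or -0.003 (-0.06 to 0.05). miR394a, which targets the F-box gene LCR, had 705 and 851 counts, or -0.22 (-0.37 to -0.08). Of 6 members in this organ growth group, 2 were higher and 4 lower, against 23 and 42 of all 65, with a median of -0.11.

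Most of the counts in either library came from 5 miRNAs, miR398b, miR159a, miR159b, miR158a and miR166a, which took 54.0% with flg22 and 57.1% untreated. miR159a and miR159b, which target MYB transcription factors, differed in direction. miR159b had 18534 counts with flg22 and 15253 untreated, or 0.33 (0.30 to 0.36), and miR159a had 16366 and 19931, or -0.24 (-0.27 to -0.21). In the flg22 library miR159b was thus the more abundant of the pair, and in the untreated library miR159a was. miR159C had 43 and 86 counts, or -0.95 (-1.52 to -0.41). It differs by 1 base from the far more abundant miR159b (U20C, miR159b first), so its counts are uncertain. miR319a, which targets TCP factors and has another seed, had 1355 and 1543 counts, or -0.14 (-0.25 to -0.03). In this group of 5, 4 were lower and 1 higher, against 42 and 23 of all 65.

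miR166a, which targets the HD-ZIP III factors of leaf polarity and stands at 7 loci, had 14321 counts with flg22 and 16941 untreated, a log2 ratio of -0.19 (-0.23 to -0.16). miR165a, which differs from it at 1 base, had 5637 and 5259, or 0.15 (0.09 to 0.20). Their star strands were level or higher with flg22, miR166e-star with 150 and 105 counts and 0.56 (0.19 to 0.94), and miR166a-star with 491 and 419 counts and 0.28 (0.09 to 0.47). The group median was 0.15 over 5 members, and -0.18 when each of the 7 loci of miR166a counts. For the SPL pair the corresponding medians were -0.38 and 0.03.

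miR161.1 and miR161.2, from overlapping positions of the same hairpin, lay on opposite sides. Both target transcripts of pentatricopeptide repeat proteins. miR161.1 had 10718 counts with flg22 and 7505 untreated, a log2 ratio of 0.56 (0.52 to 0.60), while miR161.2 had 66 and 104, or -0.61 (-1.08 to -0.15). miR161.1 lies at chr1:17825731-17825751 and miR161.2 at chr1:17825722-17825742, on the plus strand at AT1G48267, so their first bases are 9 bases apart. How reads over the overlap were assigned is not given, so the counts of the far less abundant miR161.2 are uncertain.

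Among regulators of the small RNA machinery, miR162a stood highest. miR162a, which targets DCL1, the enzyme that cuts miRNA precursors, had 8533 counts with flg22 and 6180 untreated, a log2 ratio of 0.51 (0.47 to 0.56). It lies at chr5:2634936-2634956 on the minus strand, at AT5G08185. miR403, which targets AGO2, an ARGONAUTE of antibacterial defence, had 4895 and 4683 counts, or 0.11 (0.05 to 0.17). miR168a, which targets AGO1, had 359 and 389 counts, or -0.07 (-0.28 to 0.14), and miR168a-star had 273 and 299, or -0.08 (-0.33 to 0.16). Of the 4 members, 2 were higher with an interval excluding equality, against 14 of all 65, and none (0) reached 1.5-fold. The group median of 0.02 was -0.02 with scaling by total counts.

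Of the nutrient miRNAs, those of sulfate and phosphate starvation were higher. miR395b, which targets ATP sulfurylases and the sulfate transporter SULTR2;1, had 132 counts with flg22 and 83 untreated, a log2 ratio of 0.72 (0.31 to 1.13). miR399b, which targets the phosphate regulator PHO2, had 270 and 185 counts, or 0.59 (0.32 to 0.87), and 0.56, under 1.5-fold, with scaling by total counts. These were the only members of their groups, of 5 and 12 distinct intervals with any count in the 6 libraries. miR169d-star, the partner of a miRNA that targets NF-Y subunits, had 40 and 64 counts, or -0.63 (-1.24 to -0.04).

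Copper miRNAs, which target copper proteins such as the superoxide dismutases CSD1 and CSD2, plantacyanin and laccases, did not share a direction. miR398b had 23761 counts with flg22 and 26428 untreated, or -0.11 (-0.13 to -0.08), and miR398b-star had 1919 and 2079, or -0.07 (-0.16 to 0.02). miR408 had 5514 and 4974, or 0.20 (0.14 to 0.25), and miR397b had 38 and 53, or -0.43 (-1.07 to 0.20). None of the 4 (0) reached 1.5-fold. miR398b is among miRNAs known to fall after flg22 in wild-type plants, and its ratio in parg1-1 was 0.929. In the WT libraries of this study its log2 ratio was -0.10 (-0.125 to -0.08), beside -0.11 in parg1-1. With 1 library a side there was no replicate spread to set these ratios against.

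miR472, which targets transcripts of NLR immune receptors and lies in an exon of AT1G12290 on the same strand, had 67 counts with flg22 and 79 untreated, a log2 ratio of -0.19 (-0.68 to 0.30). It was the 1 member of the defence group of 4 distinct intervals with counts. Triggers of trans-acting siRNAs had 3 of 3 members on the lower side, where 42 of all 65 members lay, and the interval excluded equality for 2. miR173-5p, which starts TAS1 and TAS2 phasing, had 465 and 611 counts, or -0.35 (-0.52 to -0.17), and miR390a, which acts with AGO7 on TAS3, had 572 and 729, or -0.30 (-0.46 to -0.14). miR390a-star had 67 and 81 counts, or -0.23 (-0.72 to 0.26). miR845a, which matches primer-binding sites of retrotransposons, had 118 and 116 counts, or 0.07 (-0.31 to 0.45).

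miRNAs of the SCARECROW-like regulators, GRAS factors of root and meristem, had 3 of 3 members on the lower side, against 42 of all 65, and the interval excluded equality for 1. miR171b had 381 counts with flg22 and 537 untreated, or -0.45 (-0.64 to -0.26), miR171a had 258 and 311, or -0.22 (-0.47 to 0.02), and miR170-star had 244 and 276, or -0.13 (-0.38 to 0.12). None of the 3 (0) reached 1.5-fold. Of 14 members outside the target groups, 10 were lower and 4 higher, against 42 and 23 of all 65, and miR163 alone reached 1.5-fold. miR822, which targets DC1-domain transcripts, had 434 and 620 counts, or -0.47 (-0.65 to -0.29), and miR846, which targets jacalin lectins, had 629 and 740, or -0.19 (-0.34 to -0.03). miR5026 stood highest of them, with 2687 and 2147 counts, or 0.37 (0.29 to 0.45). The others lay between -0.50 and 0.25.

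The plot by target group shows that groups with several members mostly spread to both sides of 0.

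**Figure D2:**
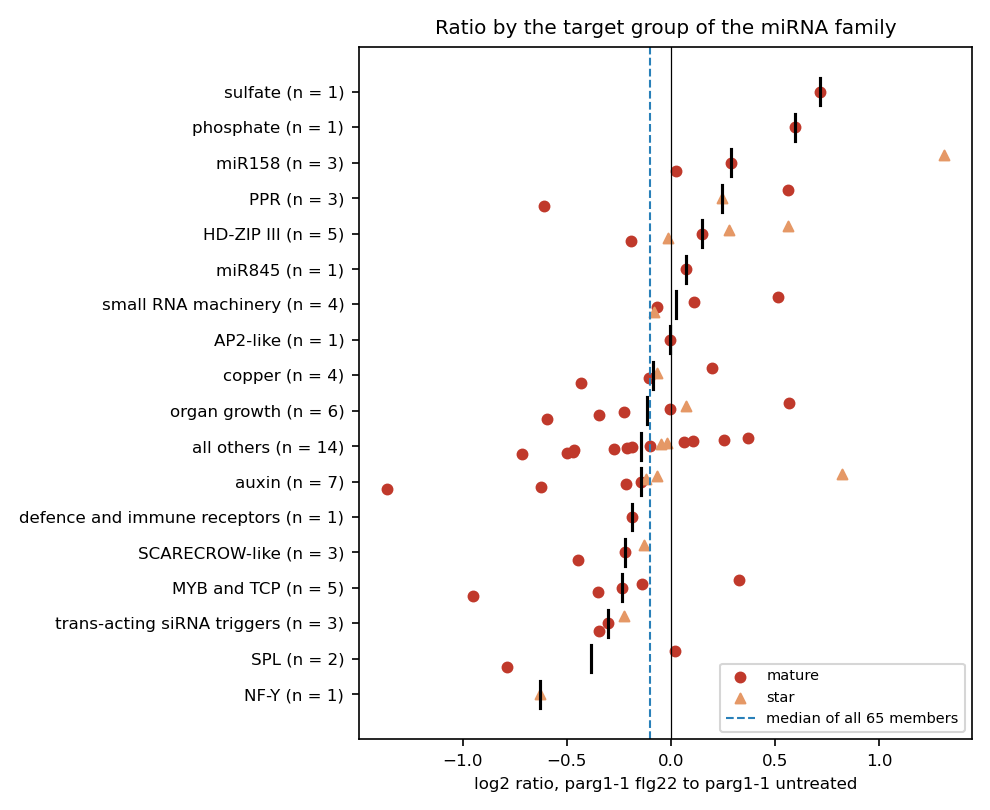
Log2 ratio of parg1-1 with flg22 to parg1-1 untreated (horizontal) for each of the 65 members, by the target group of the family (vertical). Circles are mature miRNAs, triangles star strands, black bars group medians, and the dashed line the median of all members, -0.10. Groups such as auxin, from -1.37 to 0.82, span both sides of 0.

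The member with the largest ratio was a star strand. miR158a-star had 370 counts with flg22 and 154 untreated, or 2312 and 931 scaled CPM, a log2 ratio of 1.31 (1.04 to 1.59) and a ratio of 2.48 (2.05 to 3.02). The mature miR158a, from the same hairpin, had 16122 and 16384 counts, or 0.02 (-0.01 to 0.06), and -0.01 with scaling by total counts. miR158a-star lies at chr3:3366391-3366411 on the minus strand. The other strand of the duplex therefore differed 2.48-fold while the mature strand lay at 1.02.

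The share of the star strand within a duplex does not depend on scaling between libraries. It was taken in 39 duplexes with at least 50 counts over both strands in each library, with matures and stars of identical sequence counted once. The odds of the star strand were higher with flg22 in 7 duplexes (17.9%) and lower in 1 (2.56%) by the exact interval of the odds ratio, with a median log2 odds ratio of 0.19 over the 37 duplexes with a finite value, of which 24 were above 0. For miR158a the star share was 2.24% (95% Clopper-Pearson interval 2.02% to 2.48%) with flg22 and 0.931% (0.791% to 1.09%) untreated. For miR158b, which carries the same seed, it was 20.4% (12.9% to 29.7%), from 20 star counts, and 5.71% (1.58% to 14.0%), from 4 star counts. Both miR158 hairpins thus had more star strand with flg22. miR158b differs from miR158a at the first base (C1U, miR158b first), so its mature count is uncertain.

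Among mature members that were lower with flg22, the odds ratio interval excluded 1 for miR167d, miR157a, miR160a and miR166a, each with a larger star share. A fall in the mature count raises this share even where the star count is level. For miR167d it was 3.90% with flg22 and 0.379% untreated, from 8 and 2 star counts. For miR157a it was 3.38% (2.28% to 4.82%) and 1.53% (0.972% to 2.29%), from 29 and 23 star counts. For miR160a it was 14.3% (11.7% to 17.4%) and 10.7% (8.75% to 12.8%), from 88 and 100 star counts, so its star count was not higher with flg22. For miR166a it was 4.30% (3.98% to 4.63%) with flg22 and 3.01% (2.76% to 3.28%) untreated, from 643 and 526 star counts. For the other lower mature members the interval included 1, and the share went either way. It was smaller with flg22 for miR173-5p (1.69% and 3.17%) and miR164a (2.35% and 2.50%), for example. miR156a, level in its mature strand, had 1.28% (1.01% to 1.60%) and 0.623% (0.442% to 0.855%). Among duplexes whose interval excluded 1, the exception was miR396b. Its share was 1.85% (1.52% to 2.23%) with flg22 and 2.59% (2.13% to 3.12%) untreated, since its star had 110 and 108 counts while its mature strand was higher.

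**Figure D3:**
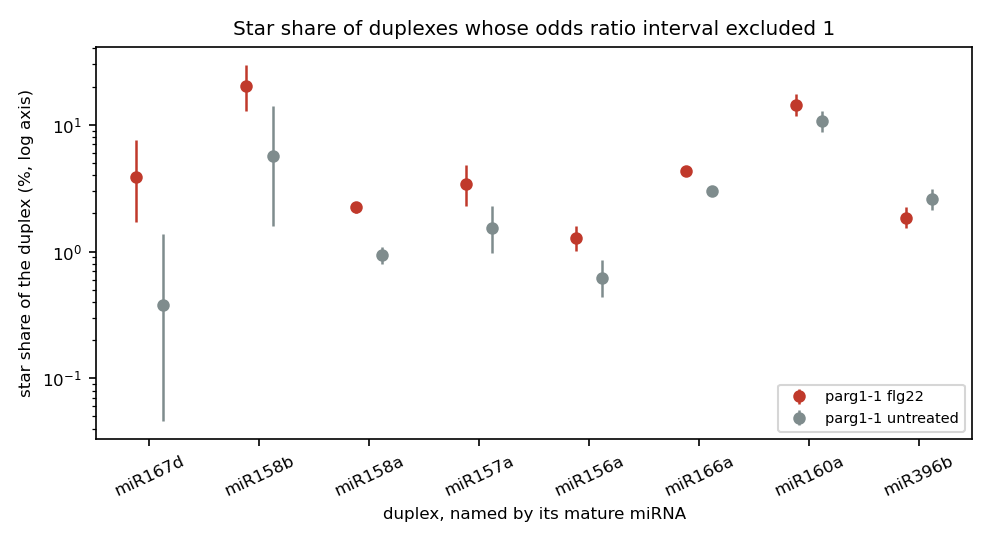
Star share of the duplex in percent (vertical, log axis) with flg22 (left point) and untreated (right point) in parg1-1 for the 8 duplexes whose odds ratio interval excluded 1. Bars are exact 95% binomial intervals, covering counting error only. The share is larger with flg22 in 7 duplexes and smaller in miR396b.

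Near-identical miRNAs could be compared without scaling as the balance of their counts. How reads were assigned between such sequences is not given, so the balances are uncertain beyond their counting intervals. The 65 members carry 56 seeds, of which 8 are shared, by 17 members in 10 pairs. In 7 of 10 pairs (70.0%) the balance differed between the libraries by its exact interval. These 7 include every combination of miR159a, miR159b and miR159C, so they are not independent, and the counts of miR159C are uncertain. Each pair is written with the member of the larger log2 ratio first, so the sign carries no information. miR167a exceeded miR167d 17.2 times with flg22 and 7.37 times untreated, a log2 change of balance of 1.22 (0.97 to 1.48). miR396b stood at 1.06 times miR396a with flg22 and 0.712 untreated, or 0.57 (0.49 to 0.65). That pair differs at the last base only (U21G, miR396b first, counted from the 5′ end). miR159b stood at 1.13 times miR159a with flg22 and 0.765 untreated, or 0.57 (0.52 to 0.61), and differs by U21A. miR165a stood at 0.394 of miR166a with flg22 and 0.310 untreated, or 0.34 (0.28 to 0.41), and differs by C17U.

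Of 2 further pairs cut from a shared precursor, miR161.1 exceeded miR161.2 162.4 times with flg22 and 72.2 times untreated, or 1.17 (0.71 to 1.64). The intervals of miR161.1 and miR161.2 overlap, so this balance is uncertain too. miR447a-3p stood at 0.972 of miR447a.2-3p with flg22 and 0.639 untreated, or 0.60 (0.05 to 1.16). The balance of miR396b to miR396a changed by -0.03 in parp1parp2 and 0.25 in WT. That of miR159b to miR159a changed by 0.66 in parp1parp2, as in parg1-1, and by -0.34 in WT. Changes of balance of this size thus appeared in the other genotypes too, in either direction.

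**Figure D4:**
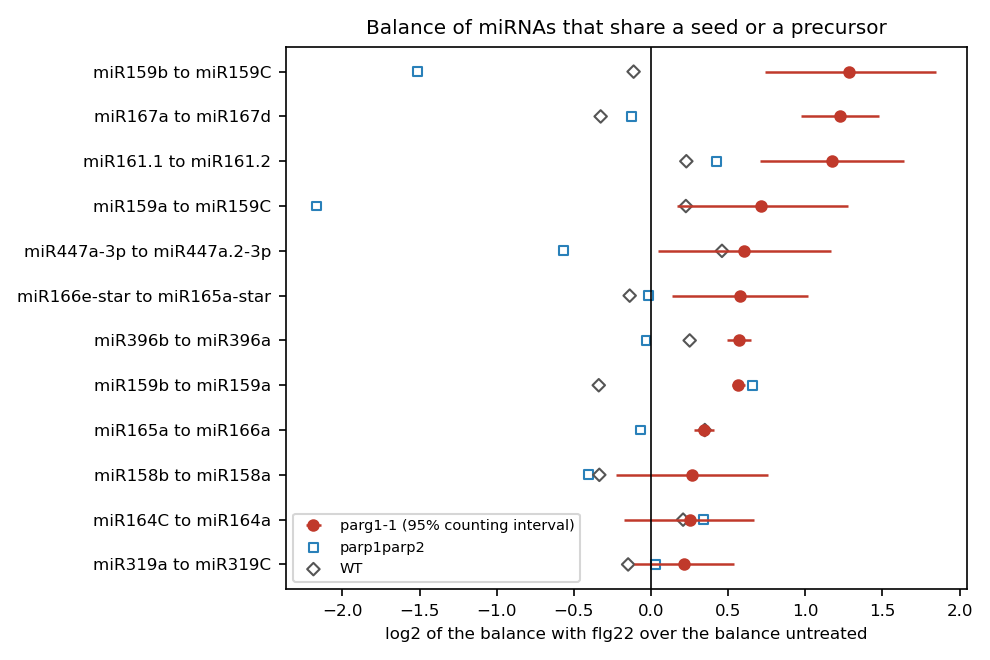
Log2 of the balance of 2 miRNAs with flg22 over their balance untreated (horizontal), for pairs that share a seed or a precursor (vertical). Filled circles are parg1-1 with exact 95% counting intervals, open squares parp1parp2 and open diamonds WT. Pairs are ordered so that parg1-1 is positive; miR159b to miR159a lies at 0.57 in parg1-1, 0.66 in parp1parp2 and -0.34 in WT.

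Sequence features, which the rule did not use, were described over the members. The median log2 ratio was -0.03 for 16 star strands and -0.19 for 49 mature miRNAs. The 43 members that begin with U, the base that AGO1 favours, had a median of -0.19. Of these, 12 were higher, against 23 of all 65, and they held 7 of the 8 members at least 1.5-fold lower. The 8 members that begin with C had 0.16, and the 7 with A, the base that AGO2 favours, -0.01. By length, 54 members of 21 bases had a median of -0.09, 6 of 20 bases 0.02 and 4 of 22 bases -0.27. These are descriptions, since members share libraries and families.

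The same members were set beside the other genotypes, whose flg22 and untreated libraries are separate. The SD of the 65 log2 ratios was 0.44 in parg1-1, 0.48 in parp1parp2 and 0.33 in WT. miR167d had log2 ratios of -1.37 in parg1-1, -0.15 in parp1parp2 and 0.50 in WT, with 917 counts with flg22 and 498 untreated in WT. miR158a-star had 1.31 in parg1-1, -0.45 in parp1parp2 and 0.01 in WT. These were the 2 members whose ratio differed from that of WT by at least 2-fold with a counting interval excluding 0, by -1.87 (-2.15 to -1.58) and 1.31 (0.80 to 1.81). miR163 had -0.72 in parg1-1, -0.06 in parp1parp2 and 0.18 in WT, and miR157a -0.79, -0.15 and -0.03. miR395b, higher in parg1-1, had -1.66 in parp1parp2 and 1.33 in WT, and miR399b had -1.24 and 0.43. The plot of the 3 genotypes sets these side by side.

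**Figure D5:**
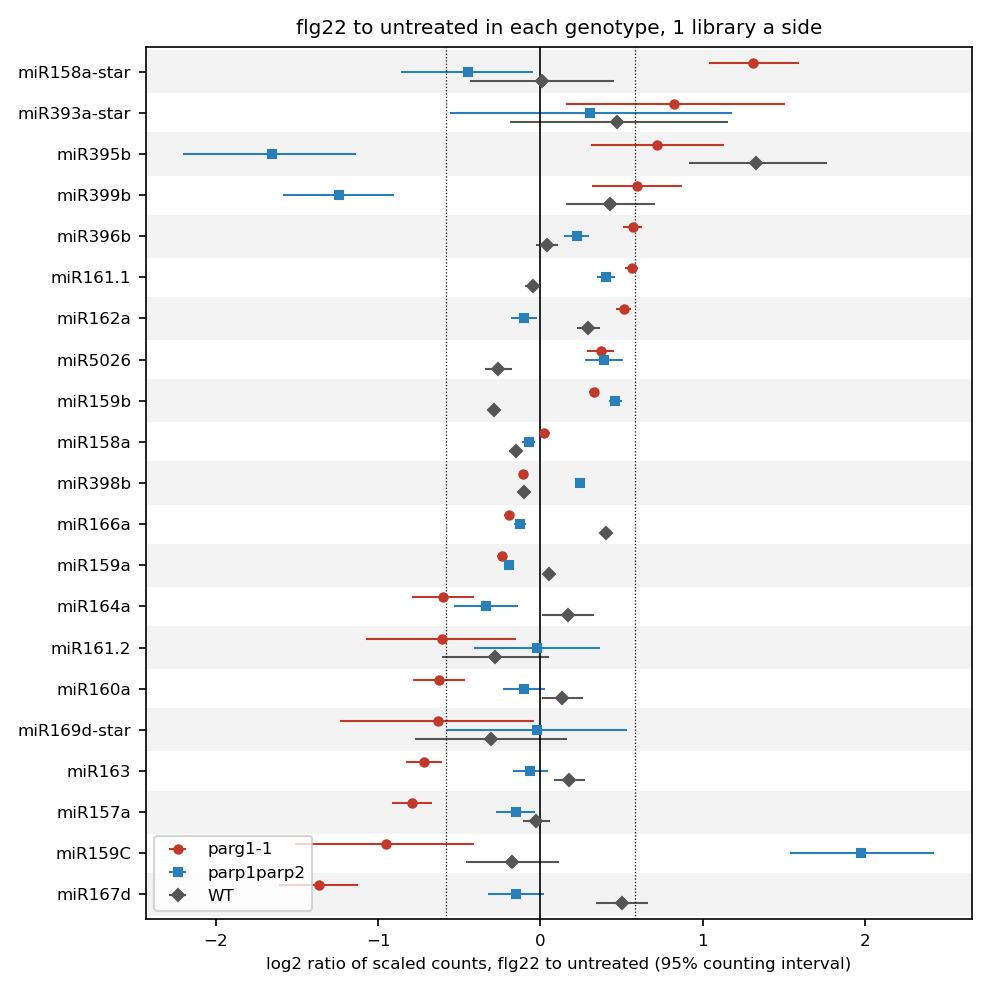
Log2 ratio of scaled counts, flg22 to untreated (horizontal), for members at least 1.5-fold apart in parg1-1 and 9 abundant ones (vertical). The 9 were picked by hand and not by rank of counts. Circles are parg1-1, squares parp1parp2 and diamonds WT, 1 library a side, with 95% counting intervals, and dotted lines mark 1.5-fold. miR158a-star and miR167d lie beyond the dotted lines in parg1-1 (1.31 and -1.37) and within them in the other genotypes.

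The difference of the parg1-1 response from the response shared by the other genotypes was tested with a term in an edgeR model of all 6 libraries. It called 0 of 136 distinct intervals (0.0%), where 7 had an unadjusted p under 0.05. DESeq2 also called 0, and 1 interval had such a p. For miR167d the response in parg1-1 lay -1.54 ± 0.73 (SE) from the shared one on the log2 scale (edgeR adjusted p = 0.708) and for miR158a-star 1.53 ± 0.67, with the same adjusted p. The smallest p was that of miR159C, with -1.81 ± 0.68 (edgeR adjusted p = 0.707), where the parp1parp2 ratio was 1.97. miR843, with 47 counts with flg22 and 25 untreated in parg1-1, had 1.61 ± 0.62 and the same adjusted p. None of these differences passed correction, and the term has 1 residual degree of freedom and rests on the 2 parg1-1 libraries. The residual is the difference between the WT and parp1parp2 responses, so a true difference between those genotypes counts as spread. The edgeR fit pooled this spread over all 136 intervals and did not estimate it for each.

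Just inside the minimum of 50 counts stood miR393a-star and miR397b, each with 53 in the higher library. Just outside stood miR156b-star, with 49 counts with flg22 and 19 untreated, and miR408-star and miR843, each with 47 with flg22, against 39 and 25 untreated.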

How the data were processed

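The authors deposited whole-number read counts for each library over 679 named intervals, of which 337 are mature miRNAs, 334 star strands and 8 TAS loci, the last not used here. Bowtie 0.12.8, bedtools and the build TAIR10 stand in the submitters' processing notes. How reads were assigned is not given in the sources used. Per the labels' protocols, gel-selected small RNA was ligated, amplified by PCR for 15 cycles and sequenced in a shared lane. No molecular identifiers are named, so intervals and the limit of 3 counts cover counting error only. Depth was 330286 counts with flg22 and 350874 untreated in parg1-1, over all intervals.

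Intervals with identical counts in all 6 libraries were taken once. Scaling factors were TMM (edgeR 4.0.16, R 4.3.3) over all 6 libraries. Ratios have exact conditional binomial (Clopper-Pearson) 95% intervals, and balances and star shares exact odds ratio intervals (scipy 1.17.1). All 337 mature intervals matched annotated miRNAs of TAIR10.1, which gave strand and sequence. Of the 334 star intervals, 54 did. For star members without a match, such as miR169d-star and miR398b-star, the strand was that of the miRNA gene around the interval. The parg1-1 by flg22 term was fitted with glmQLFit and glmQLFTest (two-sided, Benjamini-Hochberg) beside genotype and flg22, on intervals reaching 10 counts in 2 or more libraries, and with DESeq2 1.42.0 as an alternative. The counting intervals and the edgeR term were tested on simulated data. Separate cultures are not named in the labels. The 1 residual degree of freedom is the difference between the flg22 responses of WT and parp1parp2. The edgeR p-values rest on that difference, pooled over all intervals tested. It may be technical or a difference between these genotypes.

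Named were members at least 1.5-fold apart (up to 15 a direction) and their partners, the 5 with most counts, members of families 393, 160, 167, 398, 472, 825, 168, 162, 403, 845 and 395, and the 3 smallest p. Others were named after their values were seen, to fill each target group. Members and lists were chosen with earlier results of these data known.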

Additional observations from a re-analysis of the deposited data

How the results depend on the processing

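The 2-fold count of 2 was 8 (5 higher, 3 lower) at a minimum of 20 counts and 2 under the 6 other alternatives. The 1.5-fold count of 12 (4 higher, 8 lower) was 22 (11 and 11) at a minimum of 20 counts, 7 (2 and 5) at 200, and 19 (7 and 12) with every interval as deposited, where repeated sequences count at each locus. It was 11 with scaling by total counts and 12 under the other 3. The share of members higher with flg22 was 32.3% with total counts and 38.5% with DESeq2 size factors, against 35.4%. The edgeR term called 0 with TMM, with DESeq2 size factors, without the filter and with every interval as deposited. Set against WT alone, as a counting interval with no test, 2 members (1 higher, 1 lower) differed 2-fold. Star shares differed in 8 duplexes, or 7 at a minimum of 200 counts. No paired analysis was possible because each group holds 1 library. No library could be left out for the same reason.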

Other observations

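Below the minimum of 50 counts, 42 intervals had at least 20 counts in the higher parg1-1 library, 20 of them star strands. Of these 42, 6 were at least 2-fold apart with an interval excluding equality. miR823 had 42 counts with flg22 and 18 untreated in parg1-1, a log2 ratio of 1.27 (0.44 to 2.15). miR395a-star had 23 and 9 counts, or 1.40 (0.24 to 2.70), the direction of miR395b. miR156b-star had 49 and 19 counts, or 1.41 (0.62 to 2.26), and miR158b-star 20 and 4, or 2.37 (0.79 to 4.38). Lower with flg22 were miR157d, with 14 and 35 counts, and miR173-5p-star, with 8 and 20 counts and -1.27 (-2.67 to -0.03). These ratios within parg1-1 have 1 library a side and no test. The difference of the parg1-1 response from that of the other genotypes passed for none (0) of the 5 that entered the edgeR model, with an unadjusted p of 0.0342 for miR156b-star (edgeR adjusted p = 0.708). miR158b-star did not enter it.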
